A study of Mus musculus with 35 samples.

Results

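ActRIIB-Fc is a decoy receptor, made of the ligand-binding part of activin receptor type IIB joined to the Fc part of an antibody. The experiments described here compared quadriceps muscle of 2-month-old female mice treated with 1 dose of it with quadriceps of control mice of the same age and sex. The comparison was made by taking the arrays titled as mice treated with one dose and the arrays titled as control mice, in both experiments, and holding the experiment as a term. The mice compared gave 16 of the 35 arrays of the series: 3 control and 3 treated mice in the initial experiment, called experiment 1, and 5 control and 5 treated mice in the independent follow-up, called experiment 2. The other arrays came from mice given 4 doses (8 arrays) and from myostatin-null mice, written Mstn-null (11 arrays), and their arrays share in the estimate of the spread behind each SE and adjusted p, besides entering as contrasts near the end. The labels name no allele for the control and treated groups. The strain, the amount injected, the time from injection to dissection and what the controls received were not given in the sources used here. Each array came from its own mouse and is labelled as a biological replicate.

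Myostatin, activins and growth differentiation factors of the same family bind activin type II receptors on the muscle fibre, which then act with a type I receptor to phosphorylate Smad2 and Smad3. This signal restrains the AKT and mTOR growth pathway, which in turn keeps FoxO transcription factors out of the nucleus, and FoxO factors switch on ubiquitin ligases that mark sarcomere proteins for breakdown. A soluble receptor captures the ligands before they reach the fibre, and repeated treatment with such decoys is known to enlarge muscle.

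Values are log2 expression on whole-transcript arrays. Control and 1-dose arrays had medians of 4.40 to 4.44 in experiment 1 and of 6.06 to 6.17 in experiment 2. Levels are therefore compared only within an experiment. Precision is limited by how many arrays there were. The interquartile range of an array was lower after 1 dose by 0.03, an exact permutation test within experiments giving p = 0.277 (two-sided). Lists of markers for 12 cell types were read beside the pathway lists. The 10 muscle fibre markers, Acta1 and Myh4 among them, had mean levels of 11.36 to 11.41 in controls and 11.28 to 11.32 in treated mice of experiment 1, and of 13.25 to 13.34 and 13.21 to 13.32 in experiment 2.

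The falls after 1 dose had a larger median than the rises. At an adjusted p under 0.05, 222 of the 19938 genes were called (1.11%), 108 of them higher (0.542% of all genes) and 114 lower (0.572%). The called rises had a median log2 change of 0.41 and the called falls one of -0.56, while the median of all genes was 0.02. A change of 2-fold or more was seen for 2 called rises and 11 called falls. Every treated array lay above every control array of its own experiment for 81 genes (0.406%) and below every control array for 78 genes (0.391%). Among the called genes these were 48 of the rises and 53 of the falls. The count of called genes depended on the fit. It was 494 when the 16 arrays were fitted alone and 1743 with array weights (1118 higher and 625 lower), and it fell to 147 without control replicate 4 or control replicate 5 of experiment 2. With each array centred on its own median, the split was 67 higher and 131 lower (33.8% higher against 48.6%), and with the array's interquartile range as a covariate it was 192 higher and 133 lower (59.1% higher).

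Most called genes changed in the same direction in both experiments. Of the 222 genes, 221 had the same sign in the 2 experiments, against 55.9% of all genes. Both experiments had a part in choosing them, which favours the same sign, so this count is no separate support. The exception was Cth, cystathionine gamma-lyase of cysteine synthesis. Its change was 0.08 in experiment 1 and -0.81 in experiment 2. With each experiment's change taken from a fit of 8 group means, experiment 1 alone called 10 genes (0.0502%) and experiment 2 alone called 324 (1.63%), and 8 genes were called in both. Of the 324, 252 (77.8%) had the same sign in experiment 1, whose means had no part in that choice, though its spread did. The falls among the 324 had a median of -0.61 in experiment 2 and of -0.26 in experiment 1, and the rises had medians of 0.43 and 0.12. For 157 of the 222 genes the change was larger in experiment 2. A test of the difference between the experiments in limma called 0 genes (0%), with a smallest adjusted p of 0.864, while 1022 genes had an unadjusted p under 0.05, 25 of the 222 among them.

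**Figure D1:**
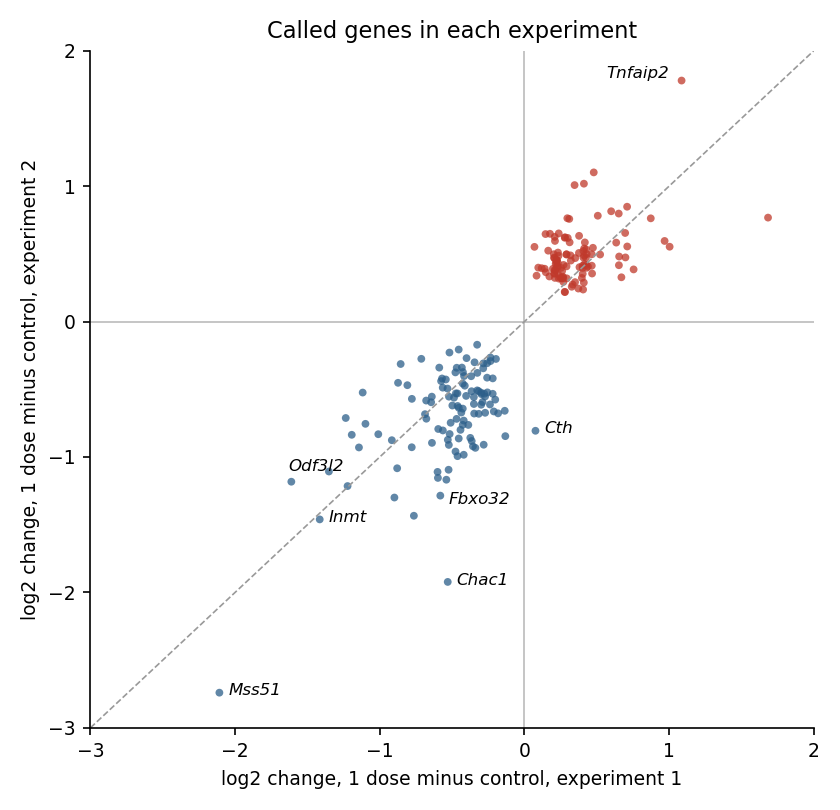
Log2 change after 1 dose (1 dose minus control) of the 222 called genes in experiment 1 (x axis, 3 against 3 mice) and experiment 2 (y axis, 5 against 5 mice), with falls in blue, rises in red and equal change on the dashed line. Of the 222 points, 221 have the same sign on both axes, and Cth is the exception. The genes were chosen from both experiments, which favours the same sign. Mss51 is at -2.11 and -2.74.

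Mss51, a mitochondrial protein enriched in skeletal muscle, had the largest change of any gene. Its log2 values in experiment 1 were 6.51, 6.18 and 6.67 in controls and 4.61, 4.28 and 4.15 after 1 dose. In experiment 2 they were 9.63, 10.38, 9.95, 10.20 and 9.89 in controls and 6.89, 7.26, 7.62, 7.72 and 6.87 after 1 dose. The groups were far apart in both experiments, and the highest treated array lay well below the lowest control. Mss51 fell by 2.50 on the log2 scale (SE 0.20), a 5.67-fold fall (adjusted p = 1.44e-10), with a 95% interval of the log2 change from -2.90 to -2.10. It was called in each experiment on its own. It is on a list of 21 mitochondrial regulators of which 1 other gene fell, Ppara, a nuclear receptor for fatty acid use (-0.51, adjusted p = 0.00871). The list's median was -0.14, and none of its genes rose, against 0.572% of all genes called lower and 0.542% called higher.

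The window just before the Mss51 start is shown because it held a complete Smad palindrome, the letters GTCTAGAC, which reads the same on both strands. The windows shown here are the 250 bases before the start in RefSeq's GRCm38.p6 annotation, written 5′ to 3′ on the gene's own strand with the motifs named for each in capitals. For Mss51 the window is chr14:20496902-20497151 on the minus strand, and the palindrome begins 222 bases before the start.
Mss51: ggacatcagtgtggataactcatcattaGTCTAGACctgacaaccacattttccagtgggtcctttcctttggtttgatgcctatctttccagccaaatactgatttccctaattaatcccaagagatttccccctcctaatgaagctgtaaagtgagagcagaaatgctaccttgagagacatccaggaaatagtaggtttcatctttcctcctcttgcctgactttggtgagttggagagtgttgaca
The palindrome was found in 38 of 19177 windows of tested genes (0.198%), and in 1 of the 115 windows of called falls. A match of letters is a description of the sequence and does not show binding.

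The best known ubiquitin ligases of muscle wasting fell after 1 dose. Of 22 measured atrophy ligases 3 fell and none rose, against 0.572% of all genes called lower and 0.542% called higher. They were Fbxo32, called atrogin-1 or MAFbx, which marks muscle proteins for the proteasome, Trim63, called MuRF1, which marks thick filament proteins, and Fbxo40, a muscle F-box protein that acts on Irs1. The list's median was -0.07.

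Fbxo32 values in experiment 1 were 9.44, 9.23 and 9.47 in controls and 9.0, 8.60 and 8.79 after 1 dose. In experiment 2 they were 11.43, 10.98, 11.45, 11.05 and 11.29 in controls and 9.82, 9.84, 9.90, 10.00 and 10.22 after 1 dose. The groups did not overlap, and in experiment 2 the 5 treated mice lay close together. Fbxo32 fell 2.03-fold (log2 change -1.02 ± 0.14 SE, adjusted p = 3.02e-05), by 0.58 in experiment 1 and by 1.29 in experiment 2.

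Trim63 values in experiment 1 were 8.61, 8.42 and 8.97 in controls and 8.04, 7.93 and 8.41 after 1 dose. In experiment 2 they were 11.03, 10.78, 11.47, 11.26 and 11.55 in controls and 9.67, 9.77, 10.32, 10.00 and 10.49 after 1 dose. The groups were separate in both experiments, though in experiment 1 the nearest arrays nearly touched. The log2 change was -0.93 ± 0.16 SE (adjusted p = 0.000609). Fbxo40 changed less, by -0.25 ± 0.06 SE (adjusted p = 0.035), and lost its call without any 1 of 11 arrays (largest adjusted p 0.1 without control replicate 3 of experiment 2), after quantile normalization, with a robust trend in the variance and over all rows of the table.

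The Trim63 window is shown as that of a ligase known to be switched on by FoxO factors, and was chosen after its values were seen. It lies at chr4:134314870-134315119 on the plus strand and held the FoxO letters GTAAACA on the opposite strand, beginning 194 bases before the start, and a TATA box (TATAAA) 31 bases before it.
Trim63: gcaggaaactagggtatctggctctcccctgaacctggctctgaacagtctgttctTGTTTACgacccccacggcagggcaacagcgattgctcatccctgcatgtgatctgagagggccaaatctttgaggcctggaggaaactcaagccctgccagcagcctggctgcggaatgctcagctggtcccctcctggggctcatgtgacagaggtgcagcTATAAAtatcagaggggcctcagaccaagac
The FoxO letters were in 2.67% of all 19177 windows on either strand, in 5 of 115 windows of called falls (4.35%) and in 2 of 99 windows of called rises (2.02%). The 5 falls were Trim63, the Krüppel-like factor Klf9, the flavin monooxygenase Fmo2, the sarcomere protein Igfn1 and the phosphoinositide phosphatase Mtmr14. The 2 rises were Junb and Otud1. These names come from the matches and were chosen after their values were seen.

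Some adaptor proteins of other ubiquitin ligases fell too. Of 26 measured Asb and kelch adaptors 3 fell and none rose, against 0.572% of all genes called lower. The list's median was -0.06. Klhl38, a kelch protein, fell by 1.18 (SE 0.16, adjusted p = 1.03e-05), and Asb15, an ankyrin repeat adaptor of the muscle, fell by 1.15 (SE 0.13, adjusted p = 8.05e-07). Asb2, which targets filamins and other proteins of the muscle, had a log2 change of -0.44 ± 0.10 SE (adjusted p = 0.0159), and without control replicate 5 of experiment 2 it was -0.41 (adjusted p = 0.0506). Treated and control mice did not overlap for Klhl38 and Asb15 in either experiment. Of 32 measured proteasome subunits none passed (median -0.10). Psmd8, a subunit of the regulatory cap, was at 0.16 (adjusted p = 0.32). Of the 32 subunits 5 were above 0, Psmd8 among them, against 58.1% of all genes.

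Of 33 measured FoxO factors and autophagy genes 2 fell and none rose, against 0.572% of all genes called lower. The list's median was -0.17. Foxo1, the forkhead factor that AKT holds in the cytoplasm, had values of 7.41, 7.34 and 7.69 in controls and 6.11, 6.70 and 6.34 after 1 dose in experiment 1. In experiment 2 it had 9.33, 9.11, 9.44, 9.49 and 9.73 in controls and 8.05, 8.27, 8.60, 9.12 and 9.29 after 1 dose. The groups were separate in experiment 1 and overlapped in experiment 2, where treated replicates 4 and 5 reached the level of the lowest controls. The log2 change was -0.88 ± 0.21 SE (adjusted p = 0.0267). Its call was lost without any 1 of 7 arrays, with the largest adjusted p of 0.0759 without treated replicate 1 of experiment 1, after quantile normalization (adjusted p = 0.0547) and over all rows of the table.

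Depp1, a regulator of autophagy that FoxO factors induce, had a log2 change of -0.92 ± 0.21 SE (adjusted p = 0.0154). Without control replicate 3 of experiment 2 it was -0.79 (adjusted p = 0.0537). The other genes of the list did not pass, and its lowest change was that of Depp1.

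**Figure D2:**
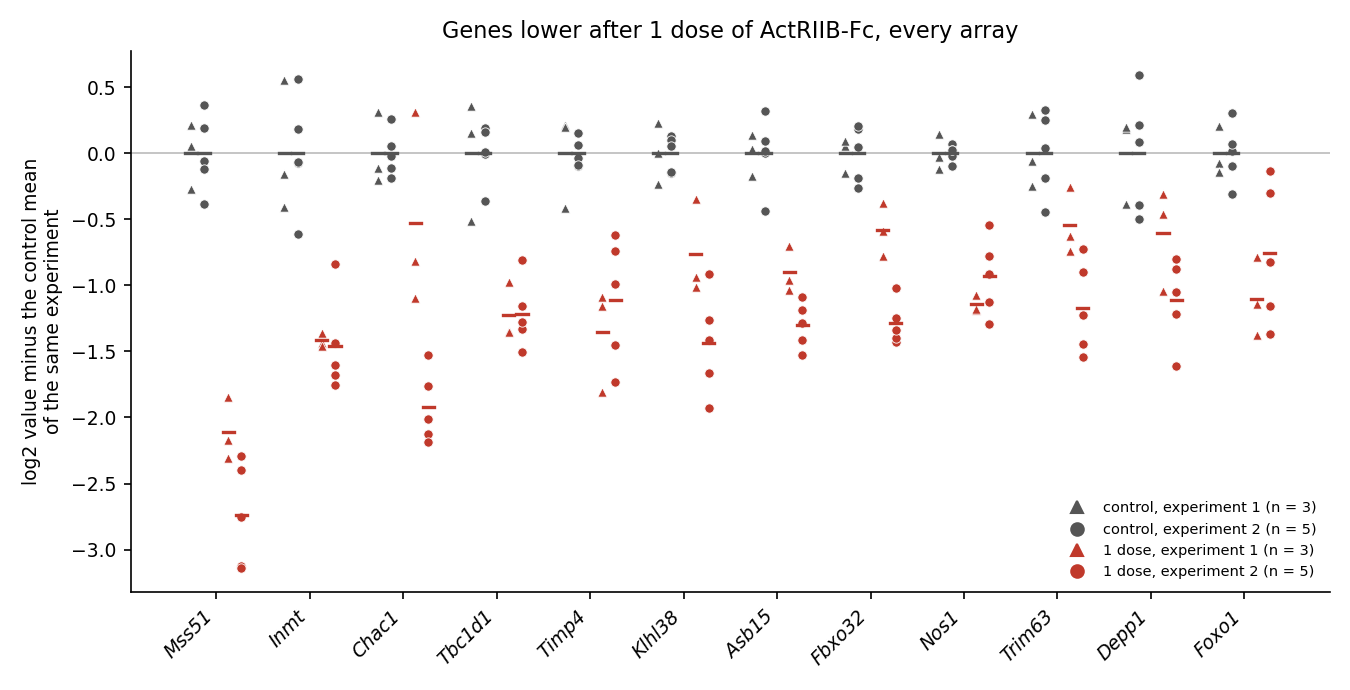
Log2 value of each array minus the control mean of its own experiment, for 12 genes lower after 1 dose; grey marks are controls, red marks treated mice, triangles experiment 1 (n = 3 a group), circles experiment 2 (n = 5 a group) and short bars group means. Mss51 stands lowest, Chac1 has 1 treated mouse of experiment 1 among the controls, and Fbxo32 and Nos1 have no overlap.

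The lists of the pathway that the decoy blocks held 1 called gene each, and 1.11% of all genes were called. Of 37 measured ligands, receptors and antagonists 1 fell and none rose (median 0.07). That gene was Acvr1b, the activin type I receptor also known as ALK4. Its values were 7.53, 7.99 and 7.79 in controls and 6.87, 7.68 and 7.50 after 1 dose in experiment 1, and 8.61, 9.09, 8.93, 9.03 and 9.39 against 7.84, 8.36, 8.29, 8.61 and 8.30 in experiment 2. The groups overlapped in experiment 1, and in experiment 2 treated replicate 4 came level with the lowest control. The log2 change of Acvr1b was -0.61 ± 0.13 SE (adjusted p = 0.0081), and -0.55 after quantile normalization (adjusted p = 0.0519).

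The ligand gene Mstn did not pass. Its values were 7.60, 6.77 and 7.68 in controls and 8.18, 7.39 and 8.40 after 1 dose in experiment 1, and 10.02, 9.92, 10.17, 10.21 and 9.84 against 10.20, 10.44, 10.40, 10.07 and 10.03 in experiment 2. The groups overlapped in both experiments, with a 95% interval of the log2 change from -0.14 to 0.87. Of 23 measured Smads and their targets 1 fell, Pmepa1, a transforming growth factor-beta target that restrains Smad signalling, and none rose (list median 0.02).

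Pmepa1 was at 7.22, 7.31 and 7.08 in controls and 6.09, 6.74 and 6.22 after 1 dose in experiment 1. Experiment 2 had values of 8.08, 7.99, 7.94, 8.21 and 8.01 in controls and 7.75, 7.59, 7.78, 7.65 and 7.90 after 1 dose. No treated array reached a control array in either experiment. The log2 change was -0.52 ± 0.10 SE (adjusted p = 0.00236), at -0.86 in experiment 1 and -0.31 in experiment 2. Klf10, an early gene of transforming growth factor-beta signalling, was higher by 0.55 ± 0.13 SE (adjusted p = 0.02). Its call was lost without any 1 of 3 arrays, with the largest adjusted p of 0.058 without control replicate 2 of experiment 2.

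Several large falls were enzymes and metabolic regulators. Inmt, an indolethylamine N-methyltransferase, was at 6.21, 6.46 and 7.17 in controls and 5.18, 5.26 and 5.16 after 1 dose in experiment 1. The values of experiment 2 were 9.43, 8.90, 9.45, 10.07 and 9.69 in controls and 7.91, 7.76, 8.07, 8.68 and 7.83 after 1 dose. Controls varied widely in both experiments, yet no treated array reached the lowest of them. Inmt fell 2.72-fold (log2 change -1.44 ± 0.23 SE, adjusted p = 0.000216), by 1.41 in experiment 1 and by 1.46 in experiment 2.

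Chac1, an enzyme that degrades glutathione and is a known target of the stress factor ATF4, had a mean log2 change of -0.53 in experiment 1 and of -1.92 in experiment 2. In experiment 1 it was at 6.73, 7.15 and 6.64 in controls and 5.75, 7.15 and 6.02 after 1 dose. In experiment 2 it was at 9.48, 9.41, 9.69, 9.24 and 9.32 in controls and 7.30, 7.90, 7.41, 7.67 and 7.24 after 1 dose. Treated replicate 2 of experiment 1 was as high as the highest control, while in experiment 2 all treated mice lay far below the lowest control. The log2 change was -1.40 ± 0.23 SE (adjusted p = 0.000422), and the difference between experiments did not pass (adjusted p = 0.864). Chac1 was the sole called gene among 29 measured genes of the ATF4, serine and glutathione response, against 1.11% of all genes called. Atf4 itself was at 0.08 (list median 0.08).

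The windows of Chac1 and Inmt, 2 of the 4 largest falls, are shown as those with an ATF4 composite element and with paired TATA boxes. The Chac1 window lies at chr2:119350992-119351241 on the plus strand, with the ATF4 letters TGATGCAA on the opposite strand 193 bases before the start and 3 GC boxes (GGGCGG on either strand). The Inmt window lies at chr6:55174991-55175240 on the minus strand, with TATAAA beginning 80 and 69 bases before the start.
Chac1: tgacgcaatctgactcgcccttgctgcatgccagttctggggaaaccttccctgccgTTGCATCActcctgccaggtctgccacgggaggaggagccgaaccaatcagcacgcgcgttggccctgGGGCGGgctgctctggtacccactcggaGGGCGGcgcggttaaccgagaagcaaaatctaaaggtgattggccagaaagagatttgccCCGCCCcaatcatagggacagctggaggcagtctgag
Inmt: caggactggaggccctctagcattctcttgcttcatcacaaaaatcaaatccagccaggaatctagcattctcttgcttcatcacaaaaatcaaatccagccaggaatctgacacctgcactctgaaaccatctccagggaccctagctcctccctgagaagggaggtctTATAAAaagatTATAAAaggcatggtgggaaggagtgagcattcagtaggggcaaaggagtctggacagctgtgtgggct
The ATF4 letters were in 0.621% of all windows and in 1 of 115 windows of called falls, that of Chac1. TATAAA was in 10.5% of all windows, in 10.4% of those of called falls and in 9.09% of those of called rises. Odf3l2 and Fbxo32 are named only.

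Odf3l2, an outer dense fibre-like protein of little known role in muscle, had a log2 change of -1.34 ± 0.32 SE (adjusted p = 0.0216) and lost its call without any 1 of 5 arrays, with the largest adjusted p of 0.0701 without treated replicate 1 of experiment 2. Tbc1d1, the Rab regulator that holds glucose transporter vesicles inside the fibre, was at 8.00, 7.33 and 8.21 in controls and 6.87, 6.50 and 6.50 after 1 dose in experiment 1. Experiment 2 had values of 9.19, 9.16, 8.64, 8.99 and 9.01 in controls and 7.67, 7.49, 7.72, 7.84 and 8.19 after 1 dose. The groups stood apart in both, and the mean changes were alike at -1.22 and -1.21. Tbc1d1 fell 2.33-fold (log2 change -1.22 ± 0.16 SE, adjusted p = 6.98e-06). It was the sole called gene among 27 of glucose uptake, glycolysis and glycogen (median -0.02), against 1.11% of all genes called.

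Nos1, the neuronal nitric oxide synthase held at the fibre membrane by the dystrophin complex, was at 7.65, 7.39 and 7.48 in controls and 6.32, 6.44 and 6.33 after 1 dose in experiment 1. The values of experiment 2 were 8.63, 8.73, 8.68, 8.56 and 8.68 in controls and 7.88, 7.36, 7.74, 7.53 and 8.11 after 1 dose. Controls were tightly grouped, and all 8 treated mice lay clearly below them. Nos1 fell 2.01-fold (log2 change -1.01 ± 0.14 SE, adjusted p = 3.02e-05). None of the other 15 measured genes of the dystrophin complex list passed, and the list's median was 0.04. Of all genes 1.11% were called.

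Timp4, an inhibitor of matrix metalloproteinases, fell by 1.20 (SE 0.18, adjusted p = 8.75e-05), and Adamts20, a secreted metalloproteinase, rose by 0.49 (SE 0.10, adjusted p = 0.00648). They were the called genes among 19 metalloproteinases and inhibitors, against 1.11% of all genes called. Adh1, an alcohol and retinol dehydrogenase, fell by 0.79 (SE 0.17, adjusted p = 0.00688), with treated replicate 3 of experiment 2 above the other treated mice. Tmem100, a membrane protein known from vessels, fell by 0.95 (SE 0.21, adjusted p = 0.0136). The thin filament protein gene Lmod2 (-1.01 ± 0.24 SE, adjusted p = 0.0256) lost its call without any 1 of 7 arrays, with the largest adjusted p of 0.0694 without treated replicate 4 of experiment 2. Fkbp5, a cochaperone induced by glucocorticoids (-0.97 ± 0.23 SE, adjusted p = 0.0241), lost it without any 1 of 6 arrays, with the largest adjusted p of 0.0714 without treated replicate 1 of experiment 1. Neither was called over all rows of the table.

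Among 14 measured genes of NAD salvage and methyl transfer, Inmt fell and 2 genes rose. Of all genes 0.572% were called lower and 0.542% higher. Gamt, which makes creatine with a methyl group from S-adenosylmethionine, was at 5.87, 5.64 and 5.83 in controls and 6.41, 6.05 and 6.16 after 1 dose in experiment 1. In experiment 2 it was at 7.18, 7.14, 6.84, 6.43 and 6.68 in controls and 7.53, 7.68, 7.32, 7.48 and 6.92 after 1 dose. The groups were separate in experiment 1, and in experiment 2 treated replicate 5 lay among the controls. Gamt rose by 0.49 (SE 0.11, adjusted p = 0.00827). Nmrk2, a muscle kinase that makes NAD from nicotinamide riboside, was higher by 0.87 ± 0.21 SE (adjusted p = 0.0272), and its call was lost without any 1 of 6 arrays (largest adjusted p 0.0824 without control replicate 5 of experiment 2) and over all rows of the table.

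The largest rise of any gene was that of Tnfaip2, a gene first described as induced by tumour necrosis factor. In experiment 1 it was at 7.25, 7.15 and 6.76 in controls and 7.96, 8.23 and 8.23 after 1 dose. Experiment 2 had values of 7.85, 8.09, 7.77, 7.83 and 7.68 in controls and 9.63, 9.90, 9.57, 9.96 and 9.07 after 1 dose. Every treated mouse lay above every control of its experiment. Tnfaip2 rose 2.87-fold (log2 change 1.52 ± 0.18 SE, adjusted p = 2.65e-06), by 1.09 in experiment 1 and by 1.78 in experiment 2. The only other called rise of 2-fold or more was that of Usp17ld, a deubiquitinase of a family of near-identical copies whose signals on an array cannot be separated with certainty (1.11 ± 0.27 SE, adjusted p = 0.0285, lost without any 1 of 5 arrays, with a largest adjusted p of 0.0747 without control replicate 3 of experiment 2, and over all rows of the table, with a robust trend in the variance and from the 16 arrays alone).

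The Tnfaip2 window is shown as that of the largest rise. It lies at chr12:111442411-111442660 on the plus strand and held 3 GC boxes, 156, 130 and 47 bases before the start.
Tnfaip2: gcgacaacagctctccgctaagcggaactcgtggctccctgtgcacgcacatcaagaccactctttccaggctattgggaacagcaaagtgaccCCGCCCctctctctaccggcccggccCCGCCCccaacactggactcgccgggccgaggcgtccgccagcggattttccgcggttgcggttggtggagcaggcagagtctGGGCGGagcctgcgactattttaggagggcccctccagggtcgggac
GC boxes were in 45.5% of all windows, in 39.1% of the windows of called falls and in 60.6% of those of called rises. An E-box (CANNTG), the letters bound by myogenic factors, was in 62.1% of all windows, 62.6% of those of falls and 65.7% of those of rises. The Smad short site CAGAC was in 41.3%, 45.2% and 42.4%, the glucocorticoid receptor short site TGTTCT in 13.2%, 19.1% and 9.09%, and the cyclic AMP element TGACGTCA in 2.02%, 0.87% and 2.02%. Both strands were searched, and 166 of the 222 called genes had a window. None of the searched runs of letters holds another of them whole.

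**Figure D3:**
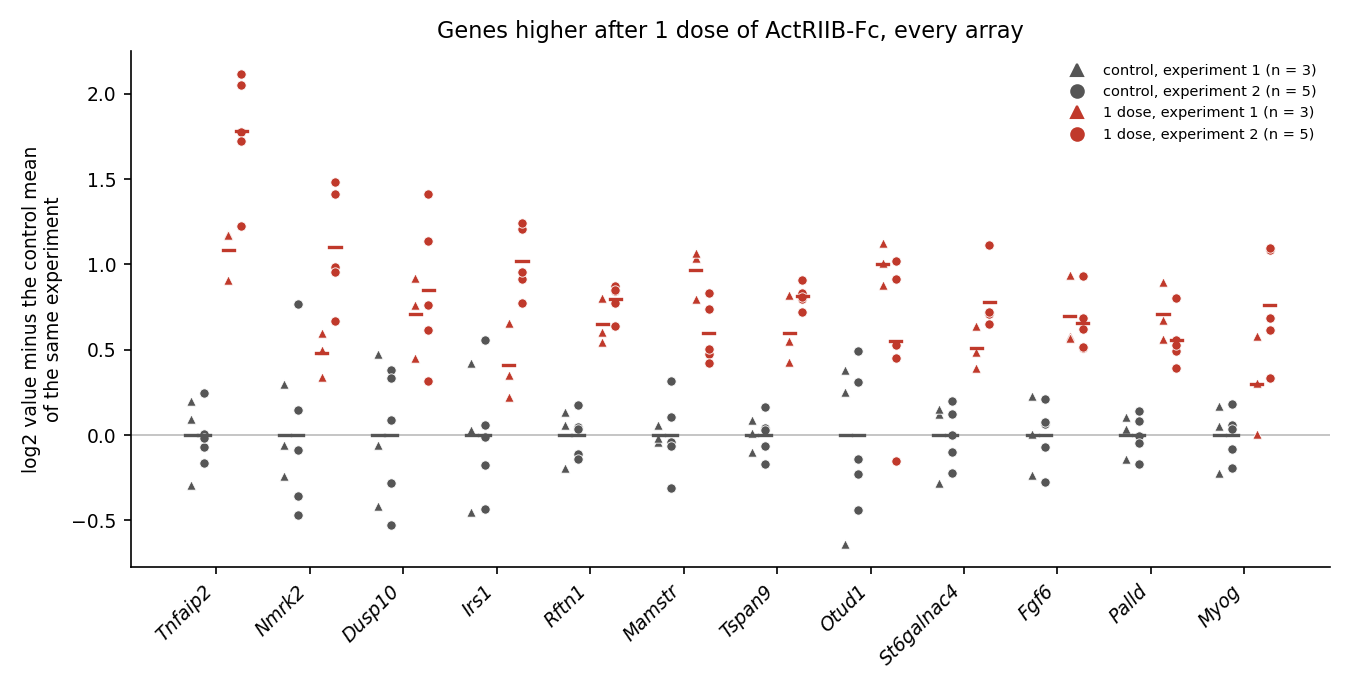
Log2 value of each array minus the control mean of its own experiment, for 12 genes higher after 1 dose; colours and marks are controls in grey, treated mice in red, triangles for experiment 1 (n = 3 a group), circles for experiment 2 (n = 5 a group) and short bars for group means. Tnfaip2 stands highest, and Otud1 has treated replicates 4 and 5 of experiment 2 within the control range.

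A few genes of insulin and growth factor signalling rose. Of 34 measured genes of the insulin, IGF, AKT and mTOR list 3 rose and none fell (median 0.02). Of all genes 0.542% were called higher. The called genes of the list were Irs1, the adaptor of the insulin receptor, Igfbp5, an IGF binding protein of muscle, and Grb10, an adaptor that restrains insulin receptor signalling. Irs1 was at 8.56, 7.69 and 8.17 in controls and 8.80, 8.36 and 8.49 after 1 dose in experiment 1. The values of experiment 2 were 9.49, 8.99, 8.92, 8.75 and 8.49 in controls and 10.14, 9.84, 9.70, 9.88 and 10.17 after 1 dose. The groups overlapped in experiment 1 and were separate in experiment 2.

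The log2 change of Irs1 was 0.79 ± 0.19 SE (adjusted p = 0.0209). Its call was lost without any 1 of 5 arrays, with the largest adjusted p of 0.0706 without control replicate 5 of experiment 2, and with the mean of all rows of the gene. Igfbp5 rose by 0.52 (SE 0.11, adjusted p = 0.00434) and Grb10 by 0.42 (SE 0.07, adjusted p = 0.000275). Treated Grb10 values ran from 7.59 to 7.78 in experiment 1 and from 9.43 to 9.63 in experiment 2, all above the controls, which reached 7.49 and 9.20. Ddit4l, an inhibitor of mTOR signalling, rose by 0.60 (SE 0.11, adjusted p = 0.00187).

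Some factors of the myogenic programme rose as well. Of 26 measured muscle transcription factors and coactivators 2 rose and 1 fell, against 0.542% of all genes called higher and 0.572% called lower. Mamstr, a coactivator of MEF2, was at 5.59, 5.62 and 5.69 in controls and 6.68, 6.43 and 6.70 after 1 dose in experiment 1. In experiment 2 it was at 7.21, 7.36, 6.94, 7.57 and 7.18 in controls and 7.72, 7.76, 8.08, 7.68 and 7.99 after 1 dose. The groups did not overlap, with a wide gap in experiment 1 and a narrow one in experiment 2. Mamstr rose by 0.74 (SE 0.10, adjusted p = 3.02e-05).

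The other called rise of that list was Mrtfa, an actin-regulated coactivator of serum response factor (0.49 ± 0.12 SE, adjusted p = 0.0305). Its call was lost without any 1 of 8 arrays (largest adjusted p 0.0957 without control replicate 5 of experiment 2), after quantile normalization, with arrays centred on their medians and over all rows. The fall was that of Tead1, a factor that binds MCAT elements (-0.53 ± 0.13 SE, adjusted p = 0.0208), lost without treated replicate 1 or treated replicate 4 of experiment 2 (largest adjusted p 0.062). Of 20 satellite cell and myogenic factors 1 rose, against 0.542% of all genes called higher. It was Myog, myogenin of differentiating myoblasts and denervated fibres.

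Myog was at 5.05, 5.16 and 4.77 in controls and 5.00, 5.30 and 5.58 after 1 dose in experiment 1. Experiment 2 had values of 6.07, 6.19, 6.33, 6.45 and 6.30 in controls and 7.35, 7.36, 6.95, 6.88 and 6.60 after 1 dose. The groups overlapped in experiment 1 and were separate in experiment 2. Myog rose by 0.59 (SE 0.13, adjusted p = 0.0136). None of the 7 satellite cell markers passed, and none of 17 neuromuscular junction and denervation genes did, with Chrna1, the acetylcholine receptor subunit, at -0.33 (adjusted p = 0.189).

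Mybph, a myosin binding protein, rose by 0.51 (SE 0.08, adjusted p = 0.000216). It was the sole called gene among 16 developmental and stress sarcomere genes, against 1.11% of all genes called. Palld, an actin crosslinker, rose by 0.61 (SE 0.11, adjusted p = 0.00154), and Fgf6, a fibroblast growth factor of muscle, by 0.67 (SE 0.11, adjusted p = 0.000318). Tspan9, a tetraspanin, rose by 0.73 (SE 0.08, adjusted p = 6.72e-07). Rftn1, a lipid raft protein, rose by 0.74 (SE 0.09, adjusted p = 2.65e-06). St6galnac4, a sialyltransferase, rose by 0.68 (SE 0.10, adjusted p = 8.75e-05), with treated replicate 3 of experiment 2 above the other treated mice. Treated and control arrays did not overlap in either experiment for Palld, Fgf6, Tspan9, Rftn1 and St6galnac4.

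Otud1, a deubiquitinase, was higher by 0.72 ± 0.17 SE (adjusted p = 0.0199), and its call was lost without any 1 of 4 arrays (largest adjusted p 0.0571 without control replicate 3 of experiment 2). Wfdc17, a secreted protein of activated macrophages, was higher by 0.76 ± 0.18 SE (adjusted p = 0.0232), lost without any 1 of 6 arrays (largest adjusted p 0.0718 without treated replicate 1 of experiment 2).

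Dual specificity phosphatases, some of which switch off MAP kinases, moved both ways. Of 19 measured MAP kinase feedback genes 2 rose and 2 fell (median 0.06), against 0.542% of all genes called higher and 0.572% called lower. Dusp18 fell by 0.77 (SE 0.13, adjusted p = 0.000609) and Dusp7, which acts on ERK, fell by 0.70 (SE 0.12, adjusted p = 0.000868). Dusp8, which acts on JNK and p38, rose by 0.49 (SE 0.11, adjusted p = 0.0136). Dusp10, also a phosphatase of JNK and p38, was higher by 0.80 ± 0.20 SE (adjusted p = 0.0329), lost without any 1 of 8 arrays (largest adjusted p 0.106 without control replicate 5 of experiment 2), with arrays centred on their medians and over all rows.

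Of 22 measured immediate early genes 2 were called higher, against 0.542% of all genes. The list's median was 0.21, with 0.05 in experiment 1 and 0.25 in experiment 2. Nr4a2, an orphan nuclear receptor, was higher by 0.50 ± 0.12 SE (adjusted p = 0.0201), lost without any 1 of 3 arrays (largest adjusted p 0.064 without control replicate 5 of experiment 2). Junb, an AP-1 subunit that maintains fibre size, was at 0.37 ± 0.10 SE (adjusted p = 0.0419), with 0.07 in experiment 1. Its call was lost without any 1 of 11 arrays (largest adjusted p 0.126 without treated replicate 1 of experiment 2, the highest of its group), after quantile normalization, with arrays centred on their medians, with a replicate block and over all rows.

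Slow fibre genes had low medians without a call. Of 14 measured slow contractile genes none passed in limma, and their median change was -0.75, the lowest of the lists, with -0.79 in experiment 1 and -0.76 in experiment 2. The mean level of the list ran from 7.11 to 8.41 in controls and from 6.26 to 7.95 in treated mice of experiment 1, and from 9.25 to 9.80 and from 7.60 to 9.82 in experiment 2. The ranges overlapped, and treated mice of experiment 2 were spread most widely. Myh7, the slow myosin heavy chain, was at 10.33, 8.94, 10.76, 7.06 and 10.38 after 1 dose in experiment 2, against 10.12, 10.52, 10.75, 11.02 and 10.68 in controls. Treated replicates 2 and 4 were low and the other treated mice lay at the control level. Its log2 change was -1.11 ± 0.50 SE (adjusted p = 0.36), and that of the slow troponin gene Tnni1 was -0.97 ± 0.39 SE (adjusted p = 0.283). In whole muscle, fewer fibres of a type and less RNA per fibre cannot be told apart. The part of this spread in the called changes was not tested.

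None of the 15 fast contractile genes passed (median 0.03). Among energy lists none of 51 genes of oxidative phosphorylation passed (median -0.09), none of 18 of the tricarboxylic acid cycle (-0.11) and none of 28 of fatty acid uptake and oxidation (-0.12). Ucp3, the muscle uncoupling protein, was nearest at -0.73 ± 0.20 SE (adjusted p = 0.0723). In these 3 energy lists 4 of 51, 0 of 18 and 3 of 28 genes had a change above 0, against 58.1% of all genes. The cause of this lean was not tested. None of 26 cytoplasmic ribosomal proteins (median 0.04), 31 cell cycle genes (0.08), 29 matrix genes (0.12), 8 polyamine genes (0.02), 16 interferon genes (-0.05) or 17 clock genes (-0.07) passed. The interferon list did not hold Gbp4 (-0.67), Gbp5 (-0.42) and Gbp9 (-0.44), interferon-induced genes that were called lower and are given at the end.

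No marker of another cell type passed. The 18 macrophage and myeloid markers had a median change of 0.26, with 17 of 18 above 0, against 58.1% of all genes. The median was 0.05 in experiment 1 and 0.44 in experiment 2, where control replicate 3 stood apart as the lowest for this list (6.19, the other controls from 6.39 to 6.47). Their mean level ran from 4.37 to 4.88 in controls and from 4.44 to 4.88 in treated mice of experiment 1, and from 6.19 to 6.47 and from 6.41 to 6.99 in experiment 2. Csf1r, the receptor that sustains macrophages, was at 0.46 ± 0.14 SE (adjusted p = 0.11). The 12 endothelial markers had a median of -0.11 (0.03 in experiment 1 and -0.22 in experiment 2) and levels of 7.96 to 8.04 in controls against 7.73 to 8.00 in treated mice of experiment 2. The other marker lists (satellite cells, erythroid cells, fibro-adipogenic progenitors, adipocytes, tendon, pericytes with smooth muscle, Schwann cells, lymphocytes and neutrophils) had medians between -0.17 and 0.12. Only 2 of 7 erythroid markers were measured. Adipocyte levels varied widely between mice, from 6.03 to 7.09 in controls and 5.76 to 7.69 in treated mice of experiment 1. In experiment 2 they ran from 7.75 to 8.87 and from 7.74 to 8.43. The part of these cell types in the called changes, Wfdc17 and Tmem100 among them, was not tested.

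**Figure D4:**
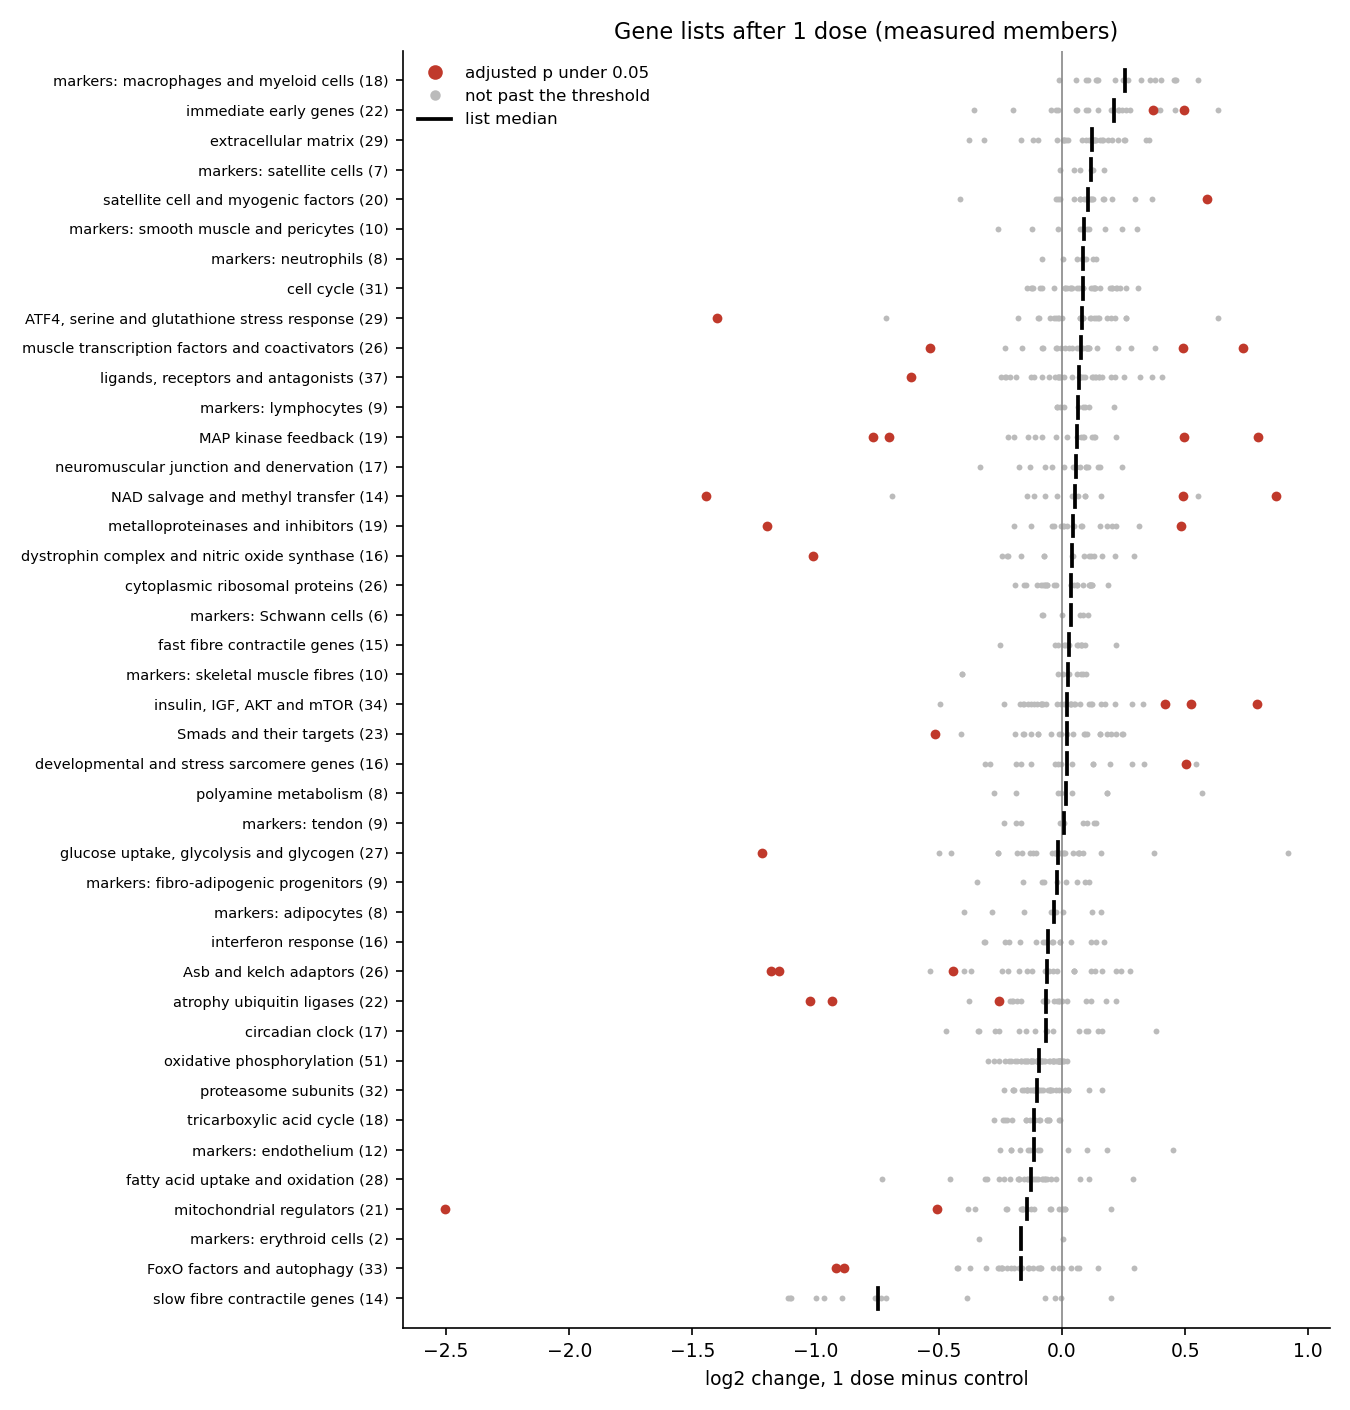
Log2 change after 1 dose (x axis) of each measured member of the lists (rows, number measured in brackets), with genes past an adjusted p of 0.05 in red, the others in grey and the list's median as a black bar. Slow fibre genes have the lowest median, -0.75, with no red point, and the mitochondrial regulators hold Mss51 at -2.50.

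The direct contrast between 4 doses and 1 dose called 64 genes (0.321%), and 6 of the 222 genes were among these. The count was 154 with the array's interquartile range as a covariate, 40 with centred arrays, 39 without the lowest 30% of genes, and between 27 and 81 with 1 array left out, the lowest without 1-dose replicate 3 of experiment 1. Gamt was higher after 4 doses than after 1 dose by 0.56 (SE 0.11, adjusted p = 0.0072), with changes against control of 0.49 after 1 dose and 1.05 after 4. It kept this call under all 4 scaling and filter alternatives and without any 1 of the 16 arrays. Ccny, a cyclin of the cell membrane, differed by 0.28 (SE 0.06, adjusted p = 0.0177), with -0.23 after 1 dose and 0.06 after 4. Its call was kept under those alternatives and lost without any 1 of 4 arrays (largest adjusted p 0.0597 without 4-dose replicate 4 of experiment 2). Its own fall after 1 dose was lost without any 1 of 11 arrays (largest adjusted p 0.103 without treated replicate 2 of experiment 1), after quantile normalization, with a robust trend in the variance and over all rows.

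The other 4 genes had changes near 0 after 4 doses, and each lost its call under at least 1 of those alternatives. These genes, and Ccny, were chosen as called after 1 dose and differing from 4 doses, with the same 1-dose arrays in both tests. Values near 0 after 4 doses are partly set by that choice. Adh1 differed by 0.73 (-0.79 after 1 dose, -0.07 after 4, adjusted p = 0.0422), lost without any 1 of 10 arrays (largest adjusted p 0.121 without 4-dose replicate 2 of experiment 1). Asb2 differed by 0.44 (-0.44 and -0.00, adjusted p = 0.0422), lost without any 1 of 11 arrays (largest 0.113 without the same array). Klf10 differed by -0.54 (0.55 and 0.01, adjusted p = 0.0493), lost without any 1 of 13 arrays (largest 0.138 without 1-dose replicate 3 of experiment 1). Wnt5a, a secreted signalling protein, differed by -0.38 (0.33 after 1 dose with adjusted p = 0.0476, and -0.04 after 4, adjusted p = 0.0422). It was lost without any 1 of 12 arrays (largest 0.109 without 4-dose replicate 4 of experiment 2), and its own rise after 1 dose was lost without any 1 of 12 arrays (largest 0.133 without control replicate 2 of experiment 2), after quantile normalization, with arrays centred on their medians and over all rows.

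For the genes that led the 1-dose response the contrast did not pass. Mss51 was at -2.31 after 4 doses, a difference of 0.20 ± 0.20 SE (adjusted p = 0.962). Fbxo32 was at -0.76, a difference of 0.26 ± 0.14 SE (adjusted p = 0.767), Trim63 at -0.87 (0.06 ± 0.16 SE, adjusted p = 0.998) and Tnfaip2 at 1.03 (-0.49 ± 0.18 SE, adjusted p = 0.377). A value short of the threshold does not show that 1 and 4 doses act alike. Changes against control after 1 dose, after 4 doses and in Mstn-null muscle share the control arrays and are given side by side. The called falls had medians of -0.56, -0.44 and -0.39, and the called rises of 0.41, 0.26 and 0.28. The genes were chosen by the 1-dose test, which favours larger changes after 1 dose, so these medians do not rank the classes.

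Mstn-null muscle, which has lacked myostatin for life, differed from 1-dose muscle at 3354 genes (16.8%), and at 91 genes with the array's interquartile range as a covariate. Of the 222 genes 70 differed, 40 of the falls and 30 of the rises. The 1-dose arrays by which the 222 genes were chosen also enter this contrast. The count of 70, and the differences of called genes given next, are partly set by that choice. The direct contrast (1 dose minus Mstn-null) was -2.22 ± 0.18 SE for Mss51 (adjusted p = 6.54e-10), which was at -0.29 in Mstn-null muscle against control. It was -1.08 for Nos1 (adjusted p = 2.27e-06), -0.95 for Tbc1d1 (5.41e-05), -0.87 for Klhl38 (0.000138), -0.71 for Fbxo32 (0.000416) and -0.64 for Asb2 (3.29e-05), with changes of 0.07, -0.26, -0.31, -0.31 and 0.20 in Mstn-null muscle. Otud1 was higher after 1 dose than in Mstn-null muscle by 1.09 (adjusted p = 2.91e-05). These 7 differences passed under each of 4 scaling and filter alternatives and without any 1 of the 19 arrays. The contrast for Pmepa1 was -0.41 (adjusted p = 0.00252), and it passed under all of these as well. Klf10, Lmod2 and Depp1 also differed (0.58, 1.16 and -0.79, adjusted p = 0.000983, 0.000632 and 0.00505) but lost the call with the interquartile range as a covariate (adjusted p = 0.169, 0.339 and 0.176). That range ran from 2.74 to 2.84 in Mstn-null and from 2.90 to 2.95 in 1-dose arrays of experiment 1. In experiment 2 it ran from 2.52 to 2.76 and from 2.76 to 2.92. The covariate thus nearly separates the classes. For calls lost under it, as in the count of 91, array spread and class cannot be told apart.

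Other genes of the response were not separated from Mstn-null muscle. Inmt was at -1.44 after 1 dose and -1.88 in Mstn-null muscle, a difference of 0.44 ± 0.21 SE (adjusted p = 0.146), and Asb15 was at -1.15 and -1.17. Tnfaip2 was at 1.52 and 1.06 (difference 0.46 ± 0.17 SE, adjusted p = 0.056). Mstn itself differed by 2.67 ± 0.23 SE (adjusted p = 1.55e-09), lower in Mstn-null muscle, and this passed under each of the same alternatives. The slow fibre list had medians of -0.75 after 1 dose, -1.41 after 4 doses and -2.01 in Mstn-null muscle.

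**Figure D5:**
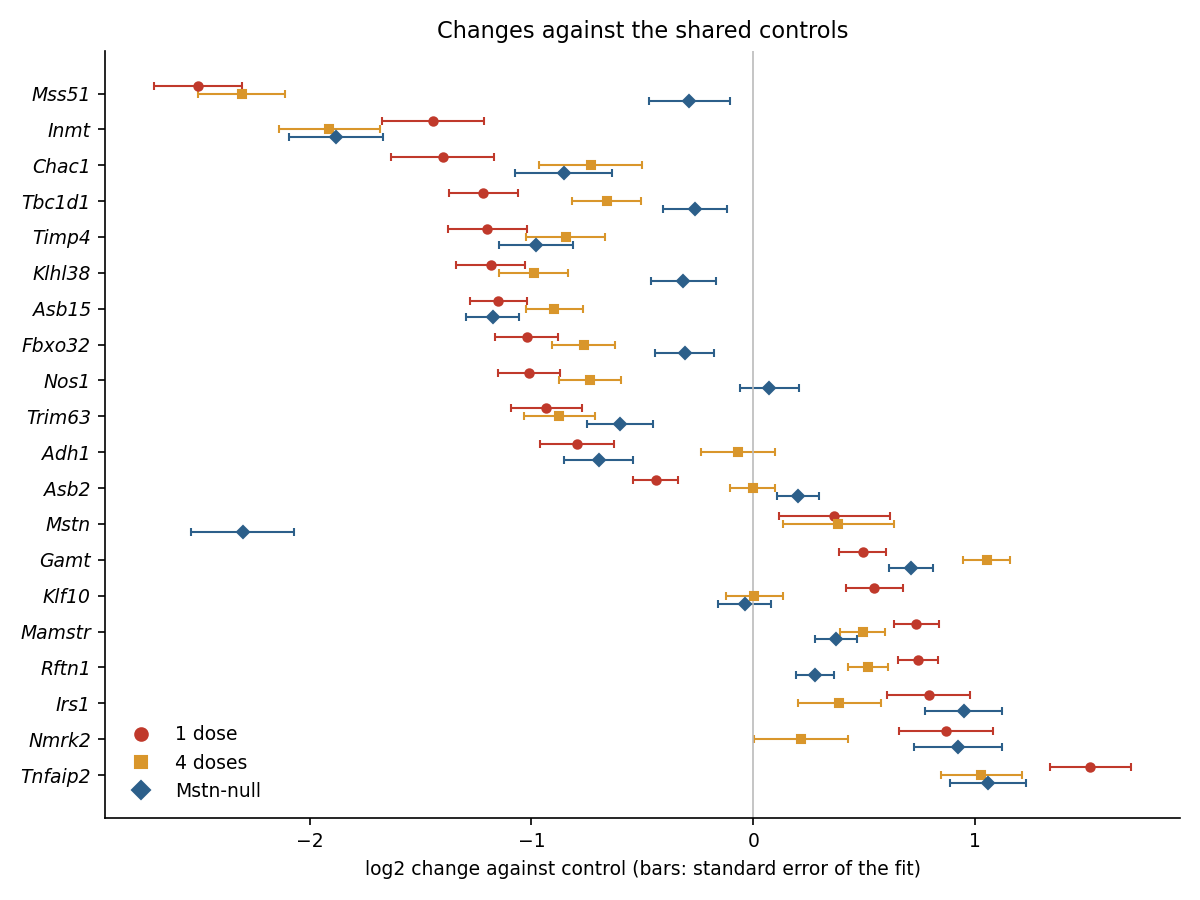
Log2 change against control of 20 genes after 1 dose (red circles), after 4 doses (orange squares) and in Mstn-null muscle (blue diamonds), with bars of 1 standard error of the fit; all 3 share the control arrays. Mss51 lies at -2.50 and -2.31 after the doses and at -0.29 in Mstn-null muscle, while Inmt is low in all 3.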

How the data were processed

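RNA from snap-frozen quadriceps was labelled for whole-transcript sense arrays, per the labels' protocols. The deposited values are log2 expression, 1 column per array; the submitters' processing notes name RMA, limma 3.4.4 and R 2.11.1 with no role, and their range is that of base 2. The sources used here do not say if RMA was run on both experiments jointly, and their array medians differed. The table had 35556 rows. Of these 21789 carried 1 gene symbol, 1621 several and 12146 none, and 21698 symbols matched RefSeq GRCm38.p6. For 999 genes with several rows the row with the highest mean was used, which left 19938 genes.

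Class and experiment were fitted to all 35 arrays with limma 3.58.1 in R 4.3.3 (lmFit, eBayes, two-sided), so that the 4 classes shared 1 estimate of the spread. P-values were Benjamini-Hochberg adjusted over all genes, and genes with an adjusted p under 0.05 were called. Changes within an experiment, and their difference, came from a fit of 8 group means. The fit was also run on simulated arrays with independent noise for each gene, which does not test noise shared between genes. No result here rests on that run. Same-numbered arrays had correlations of their deviations of 0.29, 0.34 and 0.10 in experiment 1, each over 0.1, and of -0.30 to 0.16 in experiment 2, 1 of 5 over 0.1. The numbers were not taken as pairs over the comparison as a whole. Within the control and 1-dose groups of each experiment no 2 arrays held the same values (correlations of 0.985 to 0.996); other pairs were not compared. Alternatives covered normalization, centring, filters, weights, the replicate block and each array left out.

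Named were Mstn, the 15 largest called rises and falls with the same sign in both experiments, called members of 42 gene lists (up to 3 by smallest p where none was called) and called genes that differed between 4 doses and 1 dose. Symbols that are clone numbers, olfactory or vomeronasal receptors and small RNAs were counted, not named. The members and lists were chosen with earlier results of these data known. Of 879 list entries 814 were measured. Motifs were searched on both strands of the 250 bases before each RefSeq start.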

Additional observations from a re-analysis of the deposited data

Results flagged for a closer look

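A total of 190 groups of 5 arrays were screened for 1 array far from the others by Dixon's test at its 95% critical value, which chance passes in about 1 group in 20, and 8 were found. Single genes made up 3 of them, all in treated mice of experiment 2. Adh1 was at 9.23 in replicate 3, with the others from 8.77 to 8.88. Junb was at 6.93 in replicate 1, with the others from 6.53 to 6.61. St6galnac4 was at 7.84 in replicate 3, with the others from 7.38 to 7.45.

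The other 5 were mean levels of gene lists in experiment 2. Mitochondrial regulators were at 8.34 in treated replicate 3, with the others from 8.13 to 8.18. Interferon response genes were at 6.11 in control replicate 5, with the others from 6.0 to 6.03. Cytoplasmic ribosomal proteins were at 9.72 in that same control, with the others from 9.93 to 9.98. Macrophage markers were at 6.19 in control replicate 3, with the others from 6.39 to 6.47, and markers of fibro-adipogenic progenitors were at 8.79 in it, with the others from 9.05 to 9.13.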

How the results depend on the processing

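The count of genes called after 1 dose, 222, was 494 when the 16 arrays of both classes were fitted alone, 5 from a fit to the arrays of experiment 1 only, 246 from one to those of experiment 2 only (the 8-group fit to all arrays gave 10 and 324) and 1743 with array weights (1118 higher and 625 lower, 64.1% higher against 48.6%). It lay between 195 and 325 under the other settings. Leaving out 1 array gave 147 to 327 genes, the lowest when control replicate 4 or 5 of experiment 2 was left out and the highest when control replicate 2 of experiment 1 was. With the replicate block it was 231, with 199 of the 222 genes kept. Every same-numbered pair of experiment 1 and 1 of 5 of experiment 2 deviated together by more than 0.1, and 3 of 8 arrays correlated best with their own number, a hint from the data and not from the design. The count between 4 doses and 1 dose, 64, was 40 with centred arrays, 154 with the interquartile range as a covariate and 39 without the lowest 30% of genes. Leaving out 1 array gave 27 to 81. It was 27 without 1-dose replicate 3 of experiment 1, 38 without 1-dose replicate 1 of experiment 2, 39 without 4-dose replicate 2 of experiment 1, and 41, 32 and 40 without 4-dose replicates 1, 4 and 5 of experiment 2. The count between 1 dose and Mstn-null, 3354, was 91 with the interquartile range as a covariate, which nearly separates these classes. It was 2303 to 3960 with 1 array left out. These leave-out fits of the last 2 contrasts were chosen after seeing the data. The cause of each move was not tested. The test between experiments called 0 genes under each setting run (quantile normalization, centring, the covariate and the filter). Of 52 named called genes 32 kept their call without any 1 of 16 arrays, and 0 reversed. The number of arrays, 3 and 5 a group, limits what can be seen, and depth does not apply to arrays.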

Other observations

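Other gene families held several called genes. They were picked after their values were seen, so their counts support nothing further. Of 5 measured alpha-arrestins, adaptors that direct membrane proteins to breakdown, Arrdc3 fell by 0.90 (SE 0.18, adjusted p = 0.00459 in limma) and Arrdc2 by 0.75 (SE 0.18, adjusted p = 0.0285), while Arrdc4 rose by 0.37 (SE 0.08, adjusted p = 0.0159). The 2 falls and the rise had the same sign in both experiments.

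Of 4 measured myosin light chain kinases Mylk2, the kinase of skeletal muscle, fell by 0.62 (SE 0.11, adjusted p = 0.000895) and Mylk4 by 0.69 (SE 0.14, adjusted p = 0.00351). Mylk was at 0.04 and Mylk3 at -0.03, and neither passed. Of 4 measured arginine ADP-ribosyltransferases Art1, an enzyme of the muscle surface, fell by 0.58 (SE 0.10, adjusted p = 0.000887) and Art5 by 0.52 (SE 0.09, adjusted p = 0.00109). Of 8 measured guanylate-binding proteins, interferon-induced GTPases, Gbp4 fell by 0.67 (adjusted p = 0.0285), Gbp5 by 0.42 (adjusted p = 0.00418) and Gbp9 by 0.44 (adjusted p = 0.0459). Some members of that family are near-identical copies, so the assignment of signal to each is uncertain.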
